A study of Mus musculus with 40 samples.

Results

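The data describe interscapular brown adipose tissue, the fat that burns fuel to make heat, of mice whose brown adipocytes overexpressed Gpr3, compared with control mice while both were fed a high-fat diet (HFD). They are 10 of the 40 RNA-seq libraries of a series that also covered chow-fed mice of both genotypes and mice injected with saline or with CL, a drug that activates the β3-adrenergic receptor. The members were taken from the sample labels, as the 5 mice of genotype C-3BO and the 5 control mice labelled with 7 days of HFD and no injection. C-3BO mice carried an allele in the ROSA26 locus in which a stop cassette flanked by lox sites keeps a CAG promoter from transcribing Gpr3 until Cre removes it, and a Cre driven by the Ucp1 promoter, so that expression was confined by design to cells that have transcribed Ucp1. Per the study's methods the controls carried either the allele without Cre or Cre without the allele, and the labels do not say which control mouse carried which. All animals were male, were between 13 and 19 weeks old and were housed at 29 °C, and the HFD held 60 kcal% fat. Each library came from 1 mouse. The comparison asks what a constant Gpr3 signal does to the brown fat transcriptome when the diet is already rich in fat.

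Gpr3 is a receptor that couples to the stimulatory G protein and raises cAMP without needing a ligand. In brown adipocytes cAMP activates protein kinase A, which releases fatty acids from lipid droplets and raises the transcription of thermogenic genes such as Ucp1, whose protein lets protons flow back across the inner mitochondrial membrane as heat. The same pathway is held in check by phosphodiesterases, which degrade cAMP, and by loss of receptors.

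Library totals lay between 5026435 and 9122767 counts in C-3BO mice and between 7503112 and 13461733 in controls, and 3 counts corresponded to 0.206 to 0.614 CPM (counts scaled for library size and composition), which covers counting error only. Libraries of C-3BO mice 4 and 5 were the shallowest and stood apart. Albumin (Alb), the defining liver transcript, reached 1.36, 0.564, 1.59, 294 and 272 CPM in C-3BO mice 1 to 5 and 0.792, 0.711, 0.275, 0.887 and 0.954 CPM in controls 1 to 5. Lcn8, a transcript of the epididymis, reached 38.9 and 34.6 CPM in C-3BO mice 4 and 5 and was 0 in the other 8 libraries. Below, values with C-3BO mice 1 to 3 alone are therefore given where a gene lost or gained its adjusted p below 0.05 or a printed list count moved by over 1.5 times. Markers of brown adipocytes were high throughout, with Cidea between 1584 and 3390 CPM and Cox8b between 717 and 1811 CPM, in every library of the comparison.

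The targeted gene came first. Gpr3 (mm9 chr4:132765255-132768451, minus strand) was at 688, 845, 709, 800 and 918 CPM in C-3BO mice 1 to 5 and at 0.288, 0.622, 0.0687, 0.222 and 0.477 CPM in controls 1 to 5. The lowest C-3BO mouse lay 1105 times above the highest control, and the log2 fold change was 11.25 ± 0.55 SE, adjusted p = 3.2e-18. The counts do not separate transcripts of the transgene from those of the endogenous locus.

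Of 13277 genes tested, 576 were induced in C-3BO mice (4.34%, log2 fold change above 1 and adjusted p below 0.05 in edgeR's quasi-likelihood test) and 411 were reduced (3.10%, log2 fold change below -1). With mice 1 to 3 alone, 445 of 13549 genes were induced (3.28%) and 365 were reduced (2.69%). Both sets shared 397 induced genes, 68.9% of the 576, and 298 reduced genes, 72.5% of the 411. Without a threshold on fold, 2556 genes were higher (19.3%) and 2062 lower (15.5%) at an adjusted p below 0.05, and with mice 1 to 3 alone 1979 (14.6%) and 1403 (10.4%). In 371 of the induced genes every C-3BO mouse lay above every control, against 1509 of all tested genes (11.4%), and in 274 of the reduced genes every C-3BO mouse lay below every control, against 1252 of all tested genes (9.43%). Induced and reduced genes were called from these same mice, so larger shares without overlap follow from that selection and are no separate evidence. Scaling by library totals alone moved the median log2 fold change of all genes from -0.02 to -0.19 and gave 458 induced and 690 reduced genes, with 1601 higher (12.1%) and 3723 lower (28.0%) by adjusted p alone.

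With mice 1 to 3 alone 179 induced and 113 reduced calls were lost. Among the induced calls lost, 132 had both mice 4 and 5 above mice 1 to 3, and in 88 the mean of mice 4 and 5 was over 10 times that of mice 1 to 3. Liver genes were among them. Of 59 tested members of a list of liver transcripts, 54 were induced with all 5 mice and 5 with mice 1 to 3, and the median log2 fold change of the list was 5.14 with all mice and 0.30 without mice 4 and 5. For 6 tested epididymis transcripts the counts were 4 and 0. Summed over the liver list, the level was 2949 to 3105 CPM in C-3BO mice 1 to 3, 3852 and 3881 CPM in mice 4 and 5, and 2119 to 2961 CPM in controls, and Cdo1 and Ces1d, named after their values were seen, made up 90.5% to 97.3% of this sum in the libraries other than those of mice 4 and 5. The other 126 lost calls were on neither list, and the part of liver or epididymal tissue in them was not tested. Outside both lists 518 genes were induced.

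**Figure D1:**
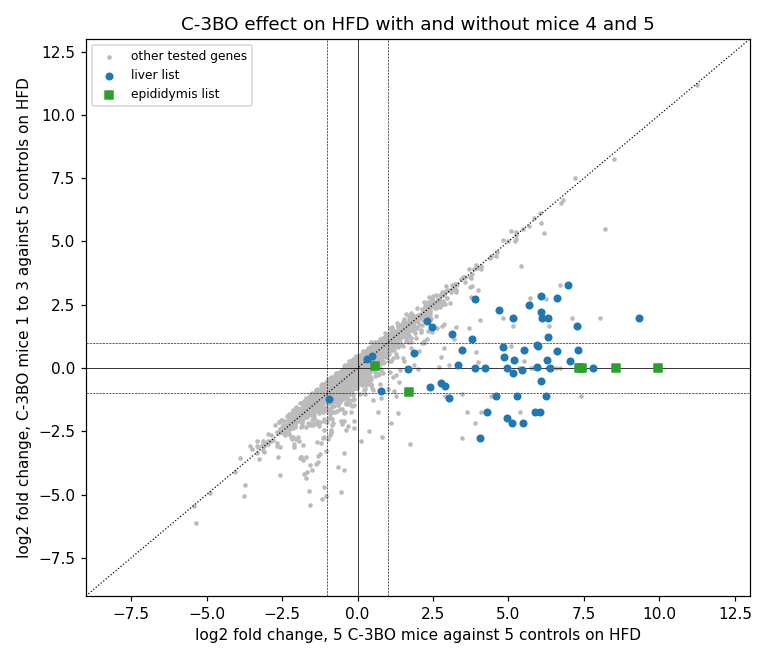
Log2 fold change of C-3BO against control mice on HFD for each tested gene, with 5 C-3BO mice (horizontal axis) and with C-3BO mice 1 to 3 (vertical axis), with the liver list in blue, the epididymis list in green, dashed lines at -1 and 1 and a dotted line of equal values. Most genes lie along the dotted line, while liver genes, 54 of 59 induced with all mice, fall toward 0 on the vertical axis, where 5 were induced.

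The genes named first by fold change were chosen because they were induced or reduced both with all 5 mice and with mice 1 to 3 and had no overlap between the groups. Those named after them by change in absolute level passed the adjusted p with all 5 mice and with mice 1 to 3, whatever their fold. None is on the liver or epididymis list.

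Elovl3, an elongase of very long chain fatty acids that is typical of active brown fat, was at 265, 305, 183, 390 and 266 CPM in C-3BO mice and at 0.288, 0.533, 4.19, 6.36 and 0.358 CPM in controls, a log2 fold change of 6.80 ± 0.50 SE, adjusted p = 2.4e-13. Its level in the lowest C-3BO mouse was 28.8 times that in the highest control. Cpne5, which encodes a calcium-dependent phospholipid-binding protein, was at 37.4, 67.8, 25, 67.2 and 61.9 CPM against 0, 0.0889, 0.206, 0.296 and 0 CPM (8.49 ± 0.53 SE, adjusted p = 5.1e-15). Col10a1, a short-chain collagen known from growth plates, was at 8.84, 11.7, 27.4, 28.5 and 16.8 CPM against 0.0720, 0, 0.206, 0.444 and 0 CPM (6.74 ± 0.51 SE, adjusted p = 8.6e-13). These 3 genes were near 0 in most control mice. Dusp15, a dual-specificity phosphatase, was at 14.4, 27, 24.7, 29.9 and 22.3 CPM against 0.0720, 0.267, 1.17, 0.370 and 0.238 CPM (5.69 ± 0.47 SE, adjusted p = 8.7e-12). Hcn2, a pacemaker cation channel gated by voltage and by direct binding of cyclic nucleotides, was at 82.1, 121, 79.3, 116 and 87.7 CPM against 3.31, 2.58, 5.63, 3.84 and 4.17 CPM (4.62 ± 0.27 SE, adjusted p = 6.9e-16), and the lowest C-3BO mouse was 14.1 times above the highest control. The transferrin receptor family member Tfr2 was at 65.6, 75.4, 82.9, 96.4 and 99.1 CPM against 0.936, 3.47, 3.64, 6.8 and 2.15 CPM (4.59 ± 0.29 SE, adjusted p = 5.1e-15). The remaining genes among the 12 largest rises were Azgp1, Acot12, Tmem28, Fam131c, Pla2g2e and Dnajc22, with log2 fold changes of 6.19, 6.04, 5.24, 5.24, 5.22 and 4.43. Of these Azgp1, which is also a liver product, was higher in C-3BO mice 4 and 5 (11 and 9.01 CPM) than in mice 1 to 3 (1.5 to 4.97 CPM), and its log2 fold change without them was 5.33.

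Ucp1 contributed the largest rise in absolute level. It was at 12339, 15064, 13462, 15798 and 13430 CPM in C-3BO mice 1 to 5 and at 2573, 2701, 5255, 9442 and 4544 CPM in controls, a log2 fold change of 1.52 ± 0.27 SE, adjusted p = 2.7e-05. Control mouse 4 had the most Ucp1 of the controls and control mice 1 and 2 the least, and all controls stayed below all C-3BO mice. Lipoprotein lipase, Lpl, which frees fatty acids from circulating triglyceride, was at 8462, 8766, 8597, 9609 and 6884 CPM against 3736, 3511, 4770, 5253 and 3229 CPM (1.05 ± 0.16 SE, adjusted p = 3.7e-06). Gnas, the locus of the stimulatory G protein α subunit, was at 6340, 7104, 6171, 5360 and 5698 CPM against 2482, 2497, 4079, 4997 and 3192 CPM (0.83 ± 0.15 SE, adjusted p = 4.3e-05). Agpat2, an acyltransferase of triglyceride synthesis, was at 2749, 2202, 2397, 2847 and 2943 CPM against 390, 378, 799, 1584 and 677 CPM (1.78 ± 0.25 SE, adjusted p = 8.1e-07). The other 2 of the 6 largest rises were Atp5b, the catalytic β subunit of ATP synthase, with 0.48 ± 0.09 SE, adjusted p = 0.00012, and Pck1, which supplies glycerol 3-phosphate for re-esterification in fat, with 0.61 ± 0.21 SE, adjusted p = 0.020. The call of Pck1 was lost with library totals alone (adjusted p = 0.079), without C-3BO mouse 2 (0.070), without control mouse 1 (0.052) and without control mouse 2 (0.057).

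Fras1, an extracellular matrix protein, had the lowest fold change of the named reduced genes, at 0.136, 0, 0.122, 0 and 0.614 CPM in C-3BO mice and 9.07, 8.8, 3.23, 4.73 and 7.75 CPM in controls (-5.36 ± 0.72 SE, adjusted p = 3.1e-07). Gadd45b, a growth arrest and stress gene, was at 2.99, 1.35, 1.83, 2.04 and 1.02 CPM against 23.7, 20.6, 13.8, 7.98 and 18.7 CPM (-3.17 ± 0.40 SE, adjusted p = 1.1e-07). Cryab, a small heat shock protein, was at 8.57, 5.31, 10.5, 9.98 and 10.2 CPM against 124, 104, 49.7, 31.3 and 77.8 CPM (-3.13 ± 0.43 SE, adjusted p = 3.9e-07). In all 3 the control mice 3 and 4 were the lowest of the controls. Dlk1, a membrane protein of preadipocytes, was at 1.22, 1.13, 1.71, 1.83 and 0.819 CPM against 16.8, 9.33, 4.4, 9.39 and 18.5 CPM (-3.10 ± 0.46 SE, adjusted p = 1.7e-06). Hspa12a, of the heat shock protein 70 family, was at 35, 13.5, 36.6, 14.5 and 22.5 CPM against 222, 203, 130, 144 and 191 CPM (-2.85 ± 0.24 SE, adjusted p = 1.0e-11). The other named genes with the lowest folds were Prr32 (-4.90), Plekhg6 (-3.32), Lctl (-3.26), Strip2 (-3.13), Nr4a1 (-2.98) and Begain (-2.96).

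Among abundant transcripts, Apoe, which carries lipid in lipoproteins, was at 387, 385, 495, 404 and 581 CPM against 1705, 2189, 1558, 1287 and 2530 CPM (-2.04 ± 0.20 SE, adjusted p = 3.2e-10). Plin4, a lipid droplet coat protein typical of white fat, was at 501, 454, 558, 446 and 523 CPM against 1751, 1585, 1243, 1161 and 1486 CPM (-1.54 ± 0.14 SE, adjusted p = 9.6e-11). Gpx3, a secreted glutathione peroxidase, was at 1377, 1872, 1376, 1432 and 1474 CPM against 4103, 3783, 3446, 2591 and 3721 CPM (-1.23 ± 0.18 SE, adjusted p = 1.6e-06). Each of these was lower in all 5 C-3BO mice. Txnip, an inhibitor of glucose uptake that binds thioredoxin, fell by 1.29 on the log2 scale, and C-3BO mouse 2 (1445 CPM) stood above the other C-3BO mice (595 to 805 CPM). Tns1 and Adck3 fell by 0.65 each.

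**Figure D2:**
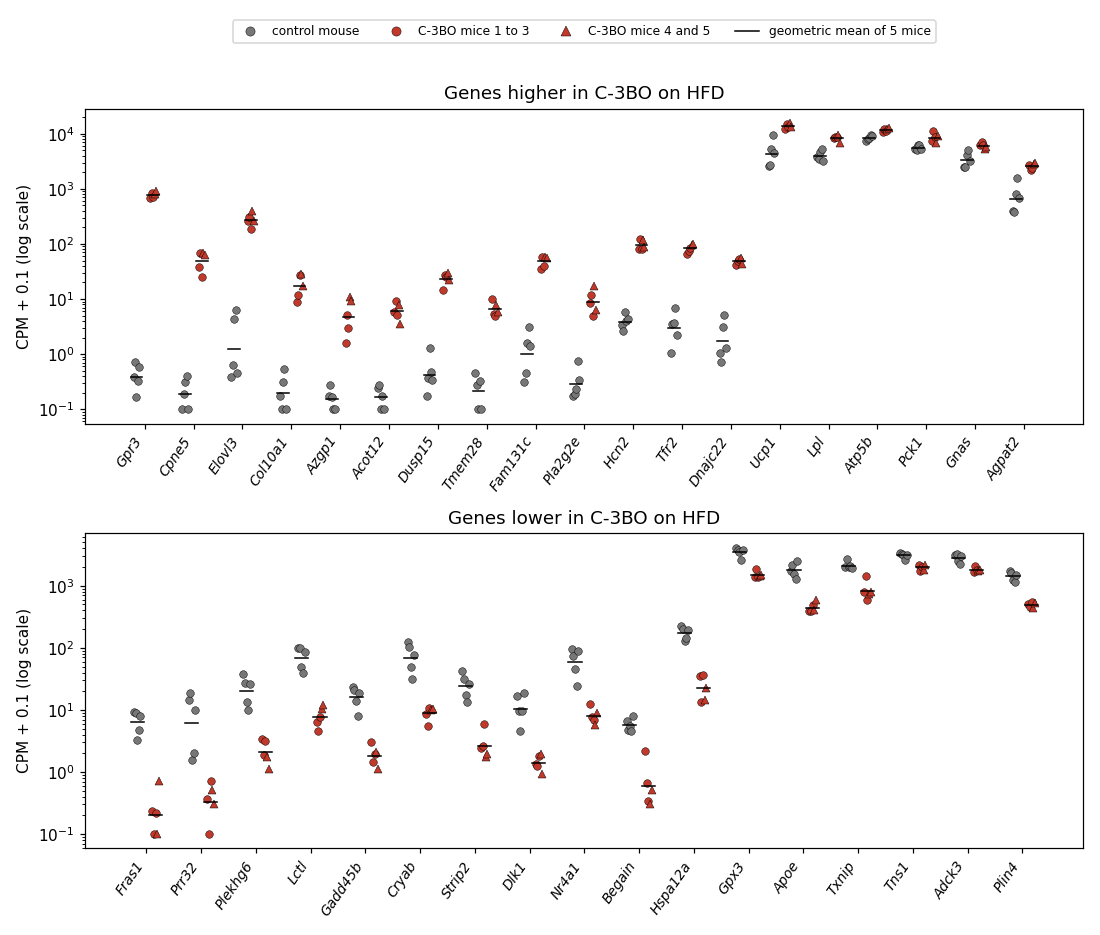
CPM plus 0.1 on a log axis for each of the 10 mice on HFD in the named genes higher (upper panel) and lower (lower panel) in C-3BO, with controls in grey, C-3BO mice 1 to 3 as red circles, mice 4 and 5 as red triangles and a line at the geometric mean of each group. Both groups separate in every gene drawn, from Gpr3 (688 to 918 CPM in C-3BO mice) to Pck1, in which the lowest C-3BO mouse (6778 CPM) was just above the highest control (6393 CPM). For the genes named by fold change this was a condition of their choice.

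Genes of thermogenesis and brown fat identity rose in part. Of 24 tested list members 8 were induced, none was reduced, and the median log2 fold change was 0.45, beside -0.02 for all genes. With mice 1 to 3 alone 9 were induced. Counts of this and later lists stand beside the shares of all tested genes, 4.34% induced, 3.10% reduced, 19.3% higher and 15.5% lower. With mice 1 to 3 these shares were 3.28%, 2.69%, 14.6% and 10.4%. With library totals alone 12.1% were higher and 28.0% lower. Dio2, which makes active thyroid hormone in the tissue, was at 180, 111, 197, 254 and 189 CPM against 22.6, 26.7, 16.9, 54.2 and 27.4 CPM (2.65 ± 0.45 SE, adjusted p = 1.4e-05). Adcy3, an adenylyl cyclase that makes cAMP, was at 481, 643, 416, 567 and 444 CPM against 119, 127, 132, 111 and 134 CPM (2.03 ± 0.20 SE, adjusted p = 3.5e-10). Both groups were clearly apart for these enzymes. Bmp8b, a secreted signal of brown fat, was at 2.45, 1.47, 0.734, 14.5 and 2.46 CPM against 0, 0, 0.0687, 0.296 and 0 CPM, with mouse 4 far above the others, and its log2 fold change of 5.43 became 4.03 with mice 1 to 3 (adjusted p = 0.0017). Letmd1, a mitochondrial inner membrane protein, and Otop1, a proton channel, had log2 fold changes of 1.33 and 1.17. The coactivator Ppargc1a, a central regulator of mitochondrial genes, was at 123, 75.3, 76.6, 76.4 and 53.9 CPM against 60.2, 66.2, 83.9, 91.6 and 53.4 CPM and did not pass the test (0.19 ± 0.17 SE, adjusted p = 0.41). Its relative Ppargc1b was lower (-0.56 ± 0.15 SE, adjusted p = 0.0035), a call that was lost with mice 1 to 3 alone (adjusted p = 0.063).

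Targets of cAMP and genes that limit its signal moved in both directions. Of 35 tested, 2 were induced and 4 reduced, 11 were higher and 7 lower at an adjusted p below 0.05, and the median log2 fold change was 0.06, or -0.10 with library totals alone. The 2 induced and 7 lower are near the shares of all tested genes, 4.34% and 15.5%. Of all tested genes 3.10% were reduced and 19.3% higher. Pde7b was at 93.7, 164, 138, 124 and 103 CPM against 15.8, 21.1, 29.7, 29.3 and 20.4 CPM (2.42 ± 0.21 SE, adjusted p = 4.0e-11), and Pde4d was at 293, 469, 292, 327 and 268 CPM against 177, 164, 186, 190 and 158 CPM (0.92 ± 0.20 SE, adjusted p = 0.00042). The second induced member, the soluble adenylyl cyclase Adcy10, lost its call with mice 1 to 3 alone (1.77 with all mice, 1.02 and adjusted p = 0.26 without mice 4 and 5), without mouse 4 (adjusted p = 0.083), with the samples of the comparison alone (0.060) and by DESeq2 on the 10 samples (0.082). Nr4a1, a nuclear receptor that cAMP induces within minutes to hours as an immediate early gene, was lower instead, at 12.4, 7.56, 6.85, 5.7 and 8.81 CPM against 96.2, 74.1, 44.7, 24.3 and 90.1 CPM (-2.98 ± 0.56 SE, adjusted p = 6.1e-05). Rgs2, which dampens G protein signals, and Pkia, a peptide inhibitor of protein kinase A, fell by 1.90 and 2.24 on the log2 scale. Crem, a transcription factor whose short forms repress cAMP targets, was at 12.8, 16.9, 14.3, 17.3 and 11.5 CPM against 15, 13.9, 11.3, 14.2 and 9.66 CPM and did not pass (0.18 ± 0.16 SE, adjusted p = 0.38).

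The cAMP response element TGACGTCA was looked for on both strands in the 250 bases before each gene's annotated start in the mm9 genome. It was present in 349 of 13275 tested genes (2.63%), in 5 of 576 induced genes (0.868%) and in 5 of 410 reduced genes (1.22%). The shorter motif TGACG or CGTCA, which the full element contains, was present in 26.0% of tested, 15.6% of induced and 17.6% of reduced genes. Among genes called also with mice 1 to 3, the full element was in 5 of 397 induced (1.26%) and 4 of 297 reduced genes (1.35%). The shorter motif was in 17.1% and 18.5% of them. The direct repeat of AGGTCA with 1 base between, known as DR1 and bound by PPARs with their partner, was present in 5 of 13275 tested genes and in none of the induced or reduced ones. These counts describe letters in 1 window and were not tested. Pde7b was the only named induced gene with the full element. Windows of 30 bases are printed 5′ to 3′ along the gene's strand with the element in capitals, first for Pde7b and then for Ppargc1a and Prkar1a, which hold the same letters and were not induced. The latter 2 were chosen after their values were seen.
Pde7b (chr10:20444972-20445001, minus strand, element 116 to 109 bases before the start): actaaacccttTGACGTCActctcgaaatg
Ppargc1a (chr5:51945226-51945255, minus strand, element 84 to 77 bases before the start): ctgccttggagTGACGTCAggagtttgtgc
Prkar1a (chr11:109512203-109512232, plus strand, element 49 to 42 bases before the start): gcgaggcgcatTGACGTCAgcagccgaacg
The log2 fold changes of these 3 genes were 2.42, 0.19 and 0.20. Prkar1a encodes a regulatory subunit of protein kinase A, and its call was lost with library totals alone (adjusted p = 0.78), without a filter (0.090), with the samples of the comparison alone (0.083), without C-3BO mouse 2 (0.076) and without control mouse 2 (0.054).

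Fatty acid handling moved in both directions. Of 22 genes of fatty acid uptake and activation, 5 were induced and 1 was reduced, with a median log2 fold change of 0.29. With library totals alone 2 were induced and the median was 0.12, and the split by adjusted p alone was 6 higher and 6 lower instead of 7 and 4. The 4 lower are near the 15.5% of all tested genes, and the 6 lower with library totals near 28.0%. The acyl-CoA synthetases Acsl5 and Acsl3 had log2 fold changes of 1.65 ± 0.26 SE, adjusted p = 5.2e-06 and 1.41 ± 0.16 SE, adjusted p = 9.4e-09, and Cd36, a fatty acid transporter, had 0.04 ± 0.10 SE, adjusted p = 0.80. Angptl4, a secreted inhibitor of lipoprotein lipase, was at 240, 428, 155, 180 and 237 CPM against 509, 676, 745, 535 and 509 CPM (-1.26 ± 0.34 SE, adjusted p = 0.0040). Among 29 genes of triglyceride synthesis and lipid droplets 4 were induced and 2 reduced. Mogat1, a monoacylglycerol acyltransferase, was at 21.9, 25.2, 23.1, 24.9 and 20.7 CPM against 2.74, 3.82, 5.01, 6.65 and 2.15 CPM (2.48 ± 0.21 SE, adjusted p = 2.5e-11). Glycerol kinase, Gyk, which lets adipocytes reuse glycerol, was at 448, 468, 432, 708 and 476 CPM against 59.2, 53.9, 198, 323 and 84.8 CPM (1.81 ± 0.33 SE, adjusted p = 3.8e-05). Of the final acyltransferases Dgat1 had 0.91 ± 0.13 SE, adjusted p = 1.1e-06. Dgat2 had 0.43 ± 0.18 SE, adjusted p = 0.065, which passed without C-3BO mouse 2 (adjusted p = 0.040), control mouse 4 (0.039) or control mouse 5 (0.044), with the samples of the comparison alone (0.048) and by DESeq2 on the 10 samples (0.017). Of the droplet coat proteins Plin2 was higher (1.09 ± 0.23 SE, adjusted p = 0.00038) while Plin4 was lower. In the lipolysis list 1 of 12 was induced, the lysophospholipase Aspg (2.28 ± 0.45 SE, adjusted p = 0.00012). The 2 hormone-responsive lipases Pnpla2 and Lipe had log2 fold changes of 0.12 and -0.01 and did not pass, and monoacylglycerol lipase, Mgll, was higher (0.90 ± 0.16 SE, adjusted p = 2.0e-05).

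Fatty acid synthesis did not move as a block. Of 28 genes of de novo lipogenesis and elongation 6 were induced and 1 was reduced, 4 and 2 with mice 1 to 3 and 5 and 2 with library totals alone. Elovl6, which extends palmitate, was at 930, 1131, 988, 2085 and 1091 CPM against 211, 213, 239, 525 and 155 CPM (2.21 ± 0.29 SE, adjusted p = 2.2e-07), with the highest value in mouse 4. Elovl4 was at 8.98, 6.55, 5.38, 8.96 and 2.66 CPM against 0.144, 0.533, 0.755, 1.18 and 0.834 CPM (3.23 ± 0.40 SE, adjusted p = 7.2e-08). Fatty acid synthase, Fasn, ranged from 1214 to 10484 CPM among C-3BO mice and from 1823 to 11599 CPM among controls, so that the groups overlapped (0.26 ± 0.47 SE, adjusted p = 0.70), though it passed on the higher side without control mouse 4 (adjusted p = 0.023). The median of the list was 0.32 with all mice and 0.00 with mice 1 to 3 alone. Cholesterol synthesis had 6 of 22 members induced and 1 reduced, and 3 induced with mice 1 to 3. Fdft1, squalene synthase, was lower (-1.21 ± 0.15 SE, adjusted p = 1.2e-07).

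Genes of fatty acid oxidation passed the test on the higher side. Of 26 mitochondrial genes 17 were higher and none was lower at an adjusted p below 0.05, 5 were induced, and the median log2 fold change was 0.59. Cpt2, the inner membrane carnitine palmitoyltransferase, was at 1403, 1605, 1411, 1371 and 1372 CPM against 389, 384, 687, 808 and 594 CPM (1.32 ± 0.15 SE, adjusted p = 1.1e-08). Decr1, which is needed for unsaturated fatty acids, was at 1394, 1645, 1452, 1641 and 1521 CPM against 572, 568, 848, 874 and 682 CPM (1.11 ± 0.11 SE, adjusted p = 1.2e-09). The outer membrane forms Cpt1a and Cpt1b did not pass, with log2 fold changes of -0.08 and 0.17. In the peroxisome 22 of 37 genes were higher, none was lower and 11 were induced, with a median of 0.66, while with library totals alone 21 were higher and 4 lower. Acaa1b, a peroxisomal thiolase, was at 116, 149, 97.2, 79.5 and 118 CPM against 8.71, 9.51, 18.1, 24.2 and 10.01 CPM (2.98 ± 0.25 SE, adjusted p = 9.9e-12). Ehhadh, the bifunctional enzyme, was at 157, 727, 263, 265 and 180 CPM against 23.5, 24.2, 146, 69.3 and 27.4 CPM, with mouse 2 the highest (2.45 ± 0.52 SE, adjusted p = 0.00029). The mitochondrial and peroxisomal lists had 5 and 11 induced genes with mice 1 to 3 alone as well, and 2 and 8 with library totals alone.

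Respiratory chain genes showed small rises in many members. Of 80 tested, 46 were higher and none lower at an adjusted p below 0.05, only Cycs was induced, and the median log2 fold change was 0.35. With library totals alone 29 were higher and 1 was lower, and the median was 0.18. Without mice 4 and 5 the number of higher genes was 36. Cytochrome c, Cycs, was at 27.7, 30.1, 26.7, 38.5 and 31.1 CPM against 11, 9.33, 14.8, 19.7 and 9.3 CPM (1.25 ± 0.20 SE, adjusted p = 5.7e-06). Cox4i1, of complex IV, was at 1965, 2450, 2061, 1868 and 2113 CPM against 1417, 1447, 1700, 1873 and 1758 CPM (0.35 ± 0.13 SE, adjusted p = 0.028), with the highest control inside the range of the C-3BO mice. Its call was lost with library totals alone (adjusted p = 0.19), without a filter (0.059), without C-3BO mouse 2 (0.087), without control mouse 1 (0.091) and without control mouse 2 (0.086). Ndufs1, of complex I, did not pass (0.16 ± 0.08 SE, adjusted p = 0.14) and did so without control mouse 4 (adjusted p = 0.028). The citric acid cycle list had 17 of 29 genes higher and 3 lower, and 14 and 5 with library totals alone, with Cs, citrate synthase, at 0.06 ± 0.07 SE, adjusted p = 0.54 and the pyruvate carrier subunit Mpc2 at 1.12 ± 0.18 SE, adjusted p = 7.0e-06. For breakdown of branched-chain amino acids 14 of 22 were higher, none was lower and none was induced. Its largest passing change was that of Mccc1, a leucine pathway carboxylase (0.90 ± 0.11 SE, adjusted p = 5.0e-08). Bckdha and Bckdhb, subunits of the branched-chain ketoacid dehydrogenase, had 0.75 and 0.78. In glucose uptake and glycolysis 4 of 38 were induced and 1 reduced, and the list's median was 0.16, or -0.01 with library totals alone, which gave 3 induced and 2 reduced. By adjusted p alone 12 were higher, and 6 with mice 1 to 3. Those 6 are near the 14.6% of all tested genes that were higher with mice 1 to 3. Gys2, glycogen synthase of liver type, was at 132, 122, 134, 186 and 140 CPM against 12.2, 14.5, 35.5, 63.3 and 26.8 CPM (2.22 ± 0.30 SE, adjusted p = 3.8e-07). The glucose transporter Slc2a4 did not pass (-0.24 ± 0.18 SE, adjusted p = 0.32) but did so on the lower side with mice 1 to 3 (adjusted p = 0.029) and without mouse 4 (0.045). Slc2a1 was lower (-0.55 ± 0.18 SE, adjusted p = 0.018), a call lost with mice 1 to 3 (adjusted p = 0.077) and without control mouse 2 (0.074).

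**Figure D3:**
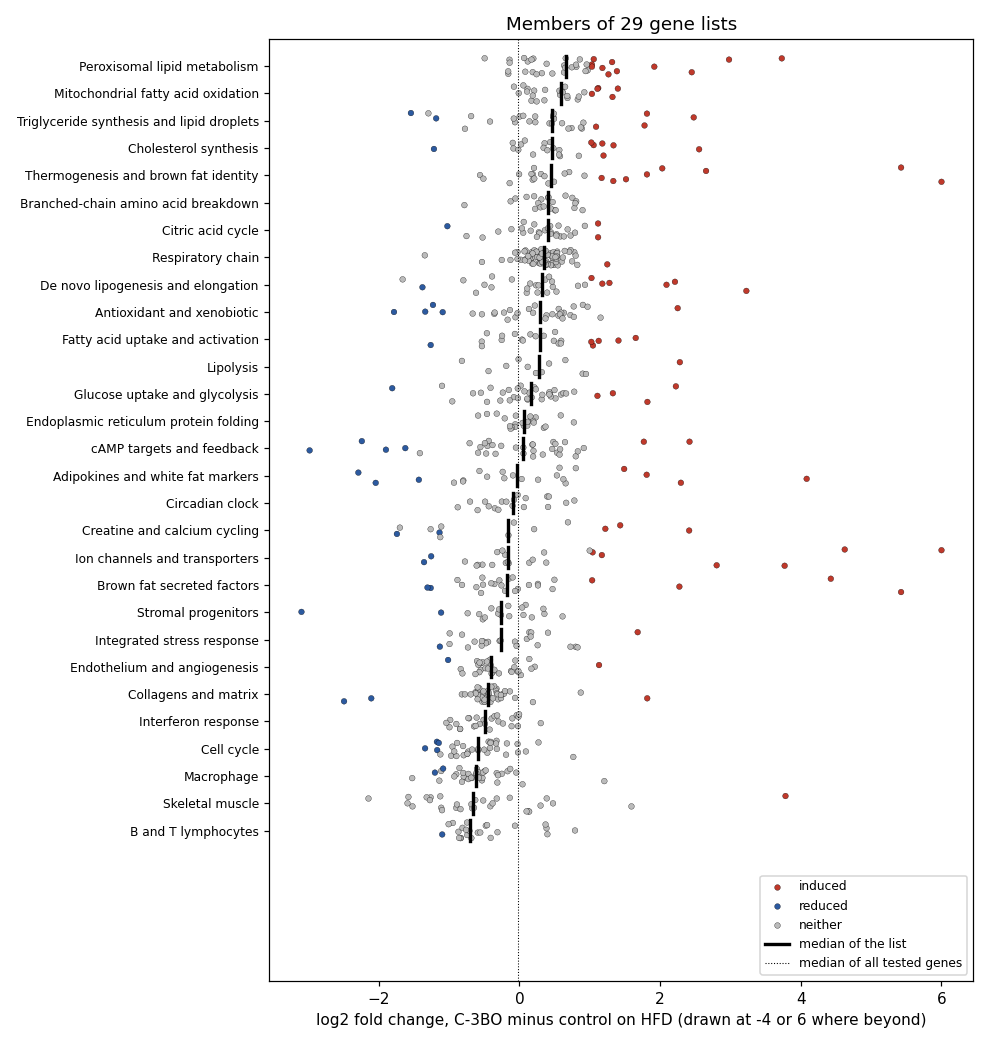
Log2 fold change, C-3BO minus control on HFD, of each tested member of the gene lists other than liver and epididymis, ordered by the list's median (black bar), with induced members in red, reduced in blue and a dotted line at the median of all tested genes (-0.02). Peroxisomal genes (median 0.66) and mitochondrial fatty acid oxidation (0.59) lie highest, and lymphocyte (-0.70), skeletal muscle (-0.66) and macrophage genes (-0.61) lowest. In these lowest lists 5 of 24, 0 of 30 and 5 of 35 members passed as lower, beside 15.5% of all tested genes.

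Secreted products of adipocytes went in both directions. Rbp4, the plasma retinol carrier, was at 409, 417, 478, 473 and 470 CPM against 26.9, 23, 25.8, 34 and 22.4 CPM (4.08 ± 0.22 SE, adjusted p = 1.0e-16), and the lowest C-3BO mouse was 12 times above the highest control. Lep, leptin, was at 190, 8.13, 131, 91.9 and 105 CPM against 859, 642, 161, 414 and 496 CPM (-2.29 ± 0.55 SE, adjusted p = 0.0013), with C-3BO mouse 2 the lowest and C-3BO mouse 1 above control mouse 3. Adipoq, adiponectin, did not pass (-0.09 ± 0.13 SE, adjusted p = 0.60). Npr3, the clearance receptor for natriuretic peptides, was at 241, 82.3, 207, 300 and 197 CPM against 846, 803, 350, 400 and 365 CPM (-1.43 ± 0.34 SE, adjusted p = 0.0012). Of 22 tested adipokines and white fat markers 4 were induced and 3 reduced. Ctsz, a lysosomal and secreted cathepsin, was at 815, 1077, 879, 1484 and 1342 CPM against 150, 129, 253, 388 and 237 CPM (2.27 ± 0.22 SE, adjusted p = 3.0e-10). The brown fat factors Nrg4 and Vegfa fell by 0.61 and 0.53 on the log2 scale, and neither was reduced by the threshold on fold. Creatine and calcium cycling had 3 of 13 induced and 2 reduced. Alpl, an alkaline phosphatase, was at 158, 130, 139, 206 and 165 CPM against 28.2, 28.6, 28.1, 30.9 and 34 CPM (2.41 ± 0.17 SE, adjusted p = 2.3e-13). Slc6a8, the creatine transporter, was at 35.1, 27.8, 29.4, 26.5 and 31.7 CPM against 119, 141, 68.8, 67.8 and 107 CPM (-1.74 ± 0.22 SE, adjusted p = 7.0e-08).

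Among ion channels, 6 of 24 were induced and 2 reduced. Cacng5, a calcium channel γ subunit, was at 1.22, 2.6, 3.79, 1.22 and 1.43 CPM in C-3BO mice and at 0 in all 5 controls, which is at least 8.10-fold higher against the mean level of 3 counts per control library. Kcnk2, a two-pore potassium channel, was at 15.4, 19.6, 9.3, 13.2 and 6.96 CPM against 1.87, 0.889, 2.4, 2.29 and 1.67 CPM (2.80 ± 0.31 SE, adjusted p = 5.5e-09). Aqp1, a water channel of small vessels, was at 495, 574, 622, 391 and 599 CPM against 1335, 1543, 1329, 926 and 1261 CPM (-1.25 ± 0.14 SE, adjusted p = 5.4e-09). Mb, myoglobin, which stores oxygen and is present in muscle and in brown fat, was at 18.1, 39.5, 40.2, 98.6 and 45.3 CPM against 4.03, 2.31, 3.09, 0.813 and 7.99 CPM (3.78 ± 0.74 SE, adjusted p = 0.00012), and Scn4b, a sodium channel β subunit, was at 14.3, 26.4, 18.8, 40.1 and 15.6 CPM against 0.792, 1.07, 2.2, 1.03 and 3.7 CPM (3.77 ± 0.71 SE, adjusted p = 7.2e-05). Both rose while the defining muscle transcript Acta1 was at 6.94, 1.35, 1.47, 22 and 24.6 CPM against 0.936, 2.67, 15, 1.11 and 57.7 CPM. Mb was the only 1 of 30 tested muscle genes to pass the test, and the summed muscle list was 3761 to 7395 CPM in C-3BO mice and 2996 to 6125 CPM in controls. The muscle markers Acta1, Ckm, Myh4, Mylpf and Tnnt3 each reached at most 59.7 CPM, so other members made up most of this sum. C-3BO mouse 4, with Acta1 at 22 CPM, had the lowest sum among C-3BO mice, so the sum does not measure muscle tissue. Any part of muscle tissue in Mb and Scn4b was not tested.

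Lists of endothelial and matrix genes had more lower than higher members, and those of macrophages and lymphocytes had few that passed. In bulk tissue fewer cells of a type and less RNA per cell cannot be told apart. For endothelium and angiogenesis 17 of 31 were lower and 1 was higher, beside 15.5% lower and 19.3% higher of all tested genes. The list's median log2 fold change was -0.41. Cdh5 and Pecam1, junction proteins of endothelium, had -0.54 ± 0.14 SE, adjusted p = 0.0024 and -0.38 ± 0.14 SE, adjusted p = 0.028. Pecam1 lost its call with mice 1 to 3 (adjusted p = 0.11) and without any 1 of C-3BO mice 3, 4 and 5 and control mice 1 and 2 (adjusted p = 0.050 to 0.13). Kdr, a receptor for Vegfa, did not pass (-0.12 ± 0.12 SE, adjusted p = 0.46). The summed endothelial list was 4385 to 4759 CPM in C-3BO mice and 5134 to 6367 CPM in controls. Apln, a ligand made by endothelial cells, was the induced member (1.13 ± 0.28 SE, adjusted p = 0.0019), and its receptor Aplnr was lower (-1.01 ± 0.20 SE, adjusted p = 0.00017). With library totals alone no endothelial member was induced. Macrophage genes had 5 of 35 lower and none higher, a share near the 15.5% of all tested genes, and 12 were lower with library totals alone, beside 28.0% of all genes. Csf1r, the receptor for macrophage growth factor, was at 19.4, 23.3, 21, 20.4 and 17.8 CPM against 38.7, 38, 25.5, 20.03 and 35.8 CPM (-0.62 ± 0.25 SE, adjusted p = 0.049), and its call was lost with mice 1 to 3 (adjusted p = 0.16), with which 1 of the 35 passed as lower. It was also lost with any 1 mouse left out other than control mice 3 and 4 (adjusted p = 0.053 to 0.12) and with the replicate block (0.051). The summed macrophage list was 229 to 277 CPM in C-3BO mice and 234 to 504 CPM in controls, so that the groups overlapped. Of 24 tested lymphocyte genes 5 were lower, near the 15.5% of all tested genes. Of 27 interferon response genes 9 were lower and none higher, which became 3 lower with mice 1 to 3. Those 3 are near the share of all tested genes that were lower with mice 1 to 3, which was 10.4%. Matrix genes had 19 of 45 lower and 2 higher, and 12 lower with mice 1 to 3. Of all tested genes 15.5% were lower, and 10.4% with mice 1 to 3. Tnc, a matrix protein of remodelling tissue, was at 10.6, 9.37, 11.5, 8.76 and 10.2 CPM against 56.1, 71.9, 37.7, 17.6 and 34.9 CPM (-2.11 ± 0.33 SE, adjusted p = 5.4e-06), and Loxl1, which cross-links elastin, was induced (1.82 ± 0.22 SE, adjusted p = 5.6e-08). Cd34, which marks progenitors and endothelium, was at 45.8, 48.7, 56.8, 48.7 and 46.7 CPM against 136, 146, 99.4, 64.8 and 87.5 CPM (-1.11 ± 0.21 SE, adjusted p = 9.7e-05). The other progenitor markers Pdgfra, Pi16 and Dpp4 did not pass, with log2 fold changes of -0.14, -0.16 and 0.61 (adjusted p = 0.64, 0.78 and 0.26). Of 19 tested stromal progenitor genes 4 were lower and 0 higher, beside 15.5% lower of all tested genes.

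Cell cycle genes were lower in 10 of 34 cases and higher in 1, and with mice 1 to 3 in 4 cases and 0. Of all tested genes 15.5% were lower and 19.3% higher, or 10.4% and 14.6% with mice 1 to 3. The 4 lower cases are near that share of 10.4%. Ccnd1, cyclin D1, was at 31.3, 31.2, 37.7, 39.3 and 32.2 CPM against 127, 124, 53.5, 54.2 and 75.5 CPM (-1.34 ± 0.26 SE, adjusted p = 8.5e-05). Mki67, a proliferation marker, was at 5.98, 7.0, 5.5, 5.09 and 5.33 CPM against 19.1, 21.2, 9.82, 4.29 and 11.2 CPM (-1.17 ± 0.39 SE, adjusted p = 0.017), with control mouse 4 below all C-3BO mice. Its call was lost with mice 1 to 3 alone (adjusted p = 0.080), without control mouse 1 (adjusted p = 0.062) and without control mouse 2 (0.076). The endoplasmic reticulum folding list had no induced or reduced member among 23 by edgeR, though 7 passed the adjusted p alone. Of these 5 were higher and 2 lower, with a split of 2 and 6 with library totals alone. The 5 higher are near the 19.3% of all tested genes. The integrated stress response list had 1 induced and 1 reduced member among 25. Cebpb, a transcription factor of adipocyte differentiation, was induced (1.68 ± 0.26 SE, adjusted p = 3.1e-06) and Nupr1 reduced (-1.13 ± 0.18 SE, adjusted p = 5.2e-06). The reduced count of the stress response list was 2 with mice 1 to 3 and 3 with library totals alone. Of 19 clock genes none was induced or reduced by edgeR, and 1 was higher and 2 were lower by adjusted p alone, 0 and 2 with mice 1 to 3. Among 32 antioxidant and xenobiotic genes 1 was induced, Cyp2e1 (2.25 ± 0.42 SE, adjusted p = 6.3e-05), and 4 were reduced, and with mice 1 to 3 the counts were 2 and 3.

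Chow-fed C-3BO and control mice share no animal with the HFD groups, so the effect of Gpr3 on each diet could be compared. Of the 576 genes induced on HFD 204 were also induced on chow, and of the 411 reduced genes 207 were also reduced on chow. By direction alone, 470 of the 576 had a log2 fold change above 0 on chow and 394 of the 411 one below 0. No share over all tested genes is given beside these counts, so they do not measure agreement between the diets. Among the 576 were 54 genes of the liver list and 4 of the epididymis list. The effect itself differed between diets (edgeR interaction, adjusted p below 0.05) in the higher direction on HFD for 181 of 13277 genes (1.36%) and in the lower direction for 97 (0.731%). With mice 1 to 3, 74 and 42 of these passed again, and the higher count was 100 without C-3BO mouse 4, 95 without control mouse 1, 101 without control mouse 2 and 272 without control mouse 4. Dusp15 had a log2 fold change of 5.69 on HFD and 0.22 on chow, a difference of 5.47 ± 0.71 (SE, adjusted p = 8.9e-06). Hcn2 had 4.62 and 1.00, a difference of 3.63 ± 0.38 (SE, adjusted p = 1.3e-07). Rbp4 had 4.08 and 2.18, a difference of 1.90 ± 0.28 (SE, adjusted p = 8.7e-05). In these 3 genes the rise was larger on HFD. Mb was higher in C-3BO mice on HFD and lower on chow, at 3.78 and -1.85, a difference of 5.63 ± 0.97 (SE, adjusted p = 0.00068). The median log2 fold change of the muscle list was -0.66 on HFD and -1.65 on chow, near the value of Mb on chow. Any part of muscle tissue in the difference of Mb was not tested. Plin4 was at -1.54 on HFD and -0.19 on chow, a difference of -1.35 ± 0.20 (SE, adjusted p = 7.3e-05). Ucp1 did not pass, with 1.52 on HFD, 2.38 on chow and a difference of -0.86 ± 0.37 (SE, adjusted p = 0.24), and Gpr3 itself had a difference of 1.53 ± 1.11 (SE, adjusted p = 0.55). Controls near 0 enter both fold changes of Gpr3, with means of 0.335 CPM on HFD and 0.388 CPM on chow. In C-3BO mice Gpr3 averaged 792 CPM on HFD (688 to 918) and 375 CPM on chow (266 to 463). The diets were thus compared at unlike Gpr3 levels, and the part of this in the other differences was not tested. In the respiratory chain list 13 of 80 genes had a higher effect on HFD and none a lower one, and the list's median log2 fold change was 0.35 on HFD and -0.12 on chow.

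**Figure D4:**
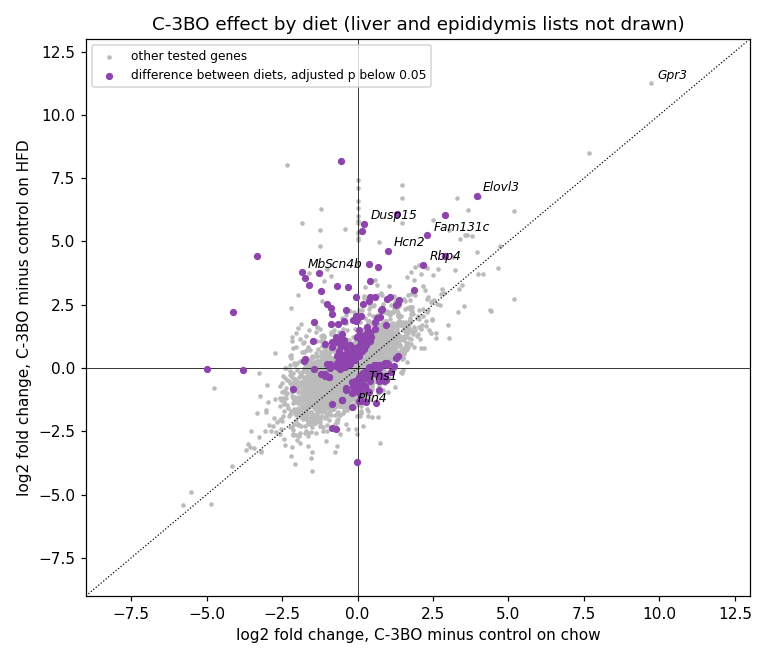
Log2 fold change of C-3BO against control mice on chow (horizontal axis) and on HFD (vertical axis) for each tested gene outside the liver and epididymis lists, with genes whose effect differed between diets in purple and a dotted line of equal effects. Dusp15 lies at 0.22 on chow and 5.69 on HFD, while Gpr3 lies at 9.72 and 11.25, with controls near 0 on both diets.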

How the data were processed

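RNA of brown adipose tissue from 40 mice was sequenced. The authors made TruSeq libraries, mapped reads to mm9 with STAR, and counted reads on exons of RefSeq genes after HOMER. The deposited values are raw counts per gene and mouse, without normalization. Strandedness is not given in the sources used here, so overlapping and antisense genes cannot be separated.

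All 20295 genes of the table were read, and 13277 passed filterByExpr of edgeR 4.0.16 (minimum count 10) over the 8 groups. All 40 libraries entered one quasi-likelihood fit with TMM scaling and a mean for each group, and Benjamini-Hochberg adjustment covered every tested gene. Genes were called induced above a log2 fold change of 1, or reduced below -1, where the adjusted p was under 0.05. Dividing a log2 fold change by the root of its F gave the value printed as SE. It is an approximation and is unreliable where a group is near 0 CPM. For Gpr3 it was 0.55 on HFD, 0.53 on chow and 1.11 for the difference between diets. TMM factors also scaled the CPM. Labels do not say that mice came from separate litters, and litter was not in the fit. The p-values set each difference against the spread between mice within groups, estimated over all 40 libraries.

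Named genes were Gpr3, then the 12 largest and 12 lowest fold changes among genes called both with all mice and with mice 1 to 3, with no overlap between groups and a mean of at least 5 CPM in the higher group, then the 6 largest rises and 6 largest falls in mean CPM among genes past the adjusted p in both fits, with liver and epididymis lists left out. From each list the strongest passing members and the first 3 could be named, and other list members were named after their values were seen. Some genes of these rules are not reported here. The members and lists were chosen with earlier results of these data known. Alternatives were DESeq2 1.42.0, other scalings, other filters, fewer samples and a replicate block.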

Additional observations from a re-analysis of the deposited data

Results flagged for a closer look

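In the groups of 5 mice on HFD, 28 of 236 groups of values of the genes named in the report held 1 mouse that stood apart by Dixon's 95% criterion. Its rate of about 1 in 20 by chance holds for independent, normal values. The genes here share the same mice, so 28 of 236 cannot be judged against that rate. Control mouse 2 was the highest for Slc2a1 (15.8 CPM against 12.2 CPM in the next mouse) and Txnip (2684 CPM against 2067 CPM in the next mouse). Control mouse 3 was the highest for Dusp15 (1.17 CPM against 0.370 CPM in the next mouse). Control mouse 4 was the highest for Acsl3 (37.8 CPM against 21.8 CPM in the next mouse), Acsl5 (131 CPM against 78 CPM in the next mouse), Adcy10 (4.58 CPM against 0.720 CPM in the next mouse), Bmp8b (0.296 CPM against 0.0687 CPM in the next mouse), Cdo1 (1456 CPM against 1083 CPM in the next mouse), Dio2 (54.2 CPM against 27.4 CPM in the next mouse), Elovl6 (525 CPM against 239 CPM in the next mouse), Fasn (11599 CPM against 2506 CPM in the next mouse), Ndufs1 (889 CPM against 741 CPM in the next mouse) and Pla2g2e (0.665 CPM against 0.238 CPM in the next mouse). Control mouse 5 was the highest for Acta1 (57.7 CPM against 15 CPM in the next mouse). C-3BO mouse 1 was the highest for Begain (2.04 CPM against 0.564 CPM in the next mouse). C-3BO mouse 2 was the highest for Cpt2 (1605 CPM against 1411 CPM in the next mouse), Ehhadh (727 CPM against 265 CPM in the next mouse), Gpx3 (1872 CPM against 1474 CPM in the next mouse), Pecam1 (278 CPM against 247 CPM in the next mouse) and Txnip (1445 CPM against 805 CPM in the next mouse). C-3BO mouse 3 was the highest for Cd34 (56.8 CPM against 48.7 CPM in the next mouse) and Strip2 (5.87 CPM against 2.48 CPM in the next mouse). C-3BO mouse 4 was the highest for Bmp8b (14.5 CPM against 2.46 CPM in the next mouse), Elovl6 (2085 CPM against 1131 CPM in the next mouse), Gyk (708 CPM against 476 CPM in the next mouse) and Gys2 (186 CPM against 140 CPM in the next mouse). C-3BO mouse 5 was the highest for Fras1 (0.614 CPM against 0.136 CPM in the next mouse). C-3BO mouse 5 was the lowest for Fdft1 (20.5 CPM against 28.1 CPM in the next mouse). 

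The effect of C-3BO differed between HFD and chow at an adjusted p below 0.05 by edgeR's interaction for 19 of the named genes. On the log2 scale the effect on HFD minus that on chow was above 0 for Mb (5.63, adjusted p = 0.00068), Dusp15 (5.47, adjusted p = 8.9e-06), Bmp8b (5.28, adjusted p = 0.0064), Scn4b (5.05, adjusted p = 0.0013), Hcn2 (3.63, adjusted p = 1.3e-07), Acot12 (3.15, adjusted p = 0.0062), Fam131c (2.92, adjusted p = 0.00039), Elovl3 (2.85, adjusted p = 0.0052), Rbp4 (1.90, adjusted p = 8.7e-05), Dnajc22 (1.54, adjusted p = 0.044), Ctsz (1.50, adjusted p = 0.0032), Adcy3 (1.28, adjusted p = 0.0057), Loxl1 (1.24, adjusted p = 0.023), Mogat1 (1.19, adjusted p = 0.021) and Bckdhb (0.58, adjusted p = 0.037). It was below 0 for Plin4 (-1.35, adjusted p = 7.3e-05), Tns1 (-0.80, adjusted p = 0.0022), Aqp1 (-0.75, adjusted p = 0.024) and Nrg4 (-0.71, adjusted p = 0.011). With C-3BO mice 1 to 3 alone the difference no longer passed for Aqp1, Bckdhb, Bmp8b, Dnajc22, Loxl1, Mogat1 and Nrg4. The muscle list had a median log2 fold change of -1.65 on chow, and any part of muscle tissue in Mb and Scn4b was not tested.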

How the results depend on the processing

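Depth limits low genes, since 3 counts corresponded to up to 0.614 CPM in C-3BO mouse 5, and the liver and epididymis transcripts of mice 4 and 5 limit induced calls. The number of induced genes was 576 in the reported fit, 171 when at least 10 counts were required in every sample, which left 8943 genes to test, and 410 to 718 under the other settings. The number of reduced genes was 411, and it was 690 with library totals alone and 184 with at least 10 counts in every sample. Other settings gave 352 to 460. DESeq2 gave 670 and 439 with all 40 samples and 589 and 433 with the 10 samples. For the difference between diets, 181 genes had a higher effect on HFD by edgeR, and the count was 283 with library totals alone, 315 with DESeq2 on all 40 samples, 117 without a filter, 108 with the samples of the comparison alone and 79 with C-3BO mice 1 to 3. The count of lower effects was 97, and it was 60 with the samples of the comparison alone and 47 with mice 1 to 3. The cause of these shifts was not tested beyond the number of genes and samples entered.

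Leaving out 1 mouse at a time gave 528 to 709 induced and 337 to 556 reduced genes, and 95 to 272 higher and 72 to 142 lower effects on HFD than on chow. The highest counts came without control mouse 4. The deviations of same-numbered C-3BO and control mice from their group means correlated across genes at 0.10, 0.02, -0.02, 0.13 and 0.20 for numbers 1 to 5, and numbers 2 and 3 correlated better with another number, so the numbers were not taken as pairs. The fit with a replicate block gave 583 induced and 411 reduced genes, and 194 higher and 94 lower effects.

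Of 119 genes named in the report, 96 kept their side of the threshold and their direction in every setting that tested them. Directions turned for genes that did not pass in the reported fit. With library totals alone Cd36 was at -0.13, Cs at -0.10, Ndufs1 at -0.0077 and Pnpla2 at -0.051. With mice 1 to 3, Fasn was at -0.52 and Lipe at 0.014. With the replicate block Acta1 was at 0.083. Leaving out 1 mouse at a time gave ranges of -1.05 to 1.04 for Acta1, -0.0035 to 0.088 for Cd36, -0.27 to 1.22 for Fasn, -0.058 to 0.018 for Lipe and -0.012 to 0.30 for Ppargc1a.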
